A study of Mus musculus with 16 samples.

Results

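Nascent RNA was compared between 2 sets of edited mouse embryonic stem cell libraries that differ in where they stand in the series' sample numbers. The later run of numbers holds the libraries ab.del.D12, ac.del.E4, a.del.53, b.del.D10 and c.del.A12, called the later set here. The earlier run holds abc.del.A6, abc.del.E2, ab.del.D10, bc.del.B3 and c.del.B11, called the earlier set. These were 10 of the 16 libraries of the series, chosen by their labels alone, 5 in each set. The other 6 libraries were 100kdel.C3, 245kdel.F9 and 4k.b.c.G12 in the later run, and 680kinv.B10, F121-9R1 and F121-9R2, the last pair with no edit in their labels, in the earlier run.

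All 16 samples were labelled as mESC, hybrid cas/129 cells, and the labels' protocols give 2i plus LIF medium for hybrid cells. Such hybrid cells start with a castaneus and a 129 copy of each autosome. Over the lettered libraries, the 129 copy held from 51.0% of autosomal reads in c.del.B11 to 53.4% in a.del.53. Whether each library kept both copies of every autosome was not tested. The letters a, b and c before "del" name deleted elements that the labels do not place or define, and they do not say what the last code of a name marks. The labels state neither what the 2 runs of numbers stand for nor whether libraries came from separate cultures, and the p-values given here therefore cover the spread of libraries, which may in part be technical. The deleted letters also differed between the sets: a stood in 3 labels of the later set and in 3 of the earlier set, b in 2 and 4, and c in 2 and 4. The run and the letters can be told apart only in part, and genes that lost their call, and lists whose count moved by over 1.5 times, with the letters as terms of the fit are named beside their results.

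In Bru-seq, cells are given bromouridine for a short time, RNA that contains it is pulled down with an antibody, and the reads therefore report RNA made during the pulse, introns included. In 2i plus LIF medium, one inhibitor blocks MEK and with it the FGF and ERK pathway, another blocks GSK3 and so raises Wnt signalling, and LIF activates STAT3 through its receptor. Together they hold embryonic stem cells in the naive state. Replication-dependent histone genes, clustered in the genome and without introns, are transcribed in S phase, and their messenger RNAs end in a conserved stem-loop in place of a poly(A) tail. Ribosomal protein and nucleolar genes follow the growth rate of a cell and are targets of MYC factors.

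Levels are given in CPM, the share of a gene in the reads of a column of the deposited table scaled to 1000000, as the mean of the 129 and the castaneus copy of a gene. They are not divided by length, so that levels compare libraries and not genes. Per-library values are listed in the order ab.del.D12, ac.del.E4, a.del.53, b.del.D10 and c.del.A12 for the later set, and abc.del.A6, abc.del.E2, ab.del.D10, bc.del.B3 and c.del.B11 for the earlier set. Differences are later minus earlier on the log2(CPM + 0.1) scale, with a standard error and the Benjamini-Hochberg adjusted p of limma over the 13336 autosomal genes tested. A gene was called where that p was below 0.05. Means are given with their SD over the 5 libraries of a set.

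Reads assigned to a copy, in units of 1000000, ranged from 9.56 in b.del.D10 to 32.05 in ac.del.E4 in the later set and from 10.6 in bc.del.B3 to 21.6 in c.del.B11 in the earlier set, and did not differ in mean beyond their spread (two-sided exact permutation test, p = 0.579). Pairs of libraries correlated across genes, which are no replicates of each other, at a median r of 0.963 within the later set, 0.970 within the earlier set and 0.952 between the sets. The 2 libraries labelled ab.del, one in each set, had r = 0.957, and the 2 labelled c.del had r = 0.952. The first principal component held 30.1% of the variance, and along it the later set lay between 24.03 and 47.38 and the earlier set between -47.33 and -19.21. The second component, with 18.6%, set b.del.D10 at -64.47 and bc.del.B3 at -49.86 apart from the other 8 libraries, and these were the 2 libraries with the fewest reads. Markers of embryonic stem cells were transcribed in all 10 libraries: the naive pluripotency list summed to 2736 to 3156 CPM in the later set and 2294 to 2895 CPM in the earlier set. Reads on the X chromosome came from the 129 copy for 1.07%, 99.84%, 1.12%, 99.82% and 13.2% in the later set and for 1.05%, 1.06%, 1.05%, 11.3% and 99.79% in the earlier set. The copies were more mixed in c.del.A12 and bc.del.B3 than in the other 8 libraries. In bulk libraries, fewer cells of a type and less RNA per cell cannot be told apart.

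In the later set, transcription of 50 of 71 ribosomal protein genes, 13 of 27 nucleolar and MYC target genes, 7 of 13 LIF and STAT3 genes and 4 of 15 FGF feedback genes was called higher, and that of 14 of 20 replication-dependent histone genes was called lower. Zfp57, Nes and Keap1 were among the genes that rose most clearly, and Hist1h1c, Dppa5a and Gpt2 among those that fell. Between the sets, 2694 genes were called, 20.2% of those tested. Of these, 2072 were higher in the later set, 15.5% of all genes tested, and 622 were lower, 4.66%. The values of the 2 sets did not overlap for 1487 genes that were higher (11.2%) and 485 that were lower (3.64%). The median difference over all genes was 0.20, and the split of calls by direction depended on the scaling. After each library was centred on its median gene, which moved all genes by 0.31, 815 genes were called higher (6.11%) and 2095 lower (15.7%). Called in the same direction under all 5 scalings tried (deposited CPM, median centring, quantile normalization, the autosomal total and edgeR's TMM) were 678 genes higher (5.08%) and 558 lower (4.18%). Calls in the lists of genes are read against these percentages. Where a list had only 1 or 2 calls in a direction, leaving out single libraries often removed or added one.

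The difference ran with the width of a gene's row in the table. In the lowest decile of width, with a median width of 2762 bases, the median difference was 0.54, and 22.5% of genes were called higher. In the highest decile, with a median width of 249411 bases, the median was -0.01, and 5.25% were called higher. Rows under 10 kb took 6.27%, 5.74%, 6.25%, 5.81% and 6.76% of autosomal reads in the later set, against 4.52%, 4.34%, 3.62%, 4.73% and 3.62% in the earlier set. All 5 later libraries lay above all 5 earlier ones, at 6.17 ± 0.41% and 4.16 ± 0.52% (SD, n = 5 each, two-sided exact permutation p = 0.00794, the smallest that 5 against 5 libraries allow, and 0.0397 after adjustment over 5 library measures). This share restates the trend on width in the same reads, so that its p is no separate test of the trend. The share of a row covered by exons moved with the difference as well: the median was 0.54 in the quintile of genes with the highest exonic share and 0.02 in the quintile with the lowest. Among rows of like width, in decile 4, the median was 0.36 for the more exonic genes and 0.25 for the less exonic ones. With the trend on row width removed from each library, 823 genes were called higher (6.17%) and 1052 lower (7.89%), and 819 of the 2072 and 575 of the 622 calls remained. What part of the pathway results the row width carries was not tested beyond these fits.

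**Figure D1:**
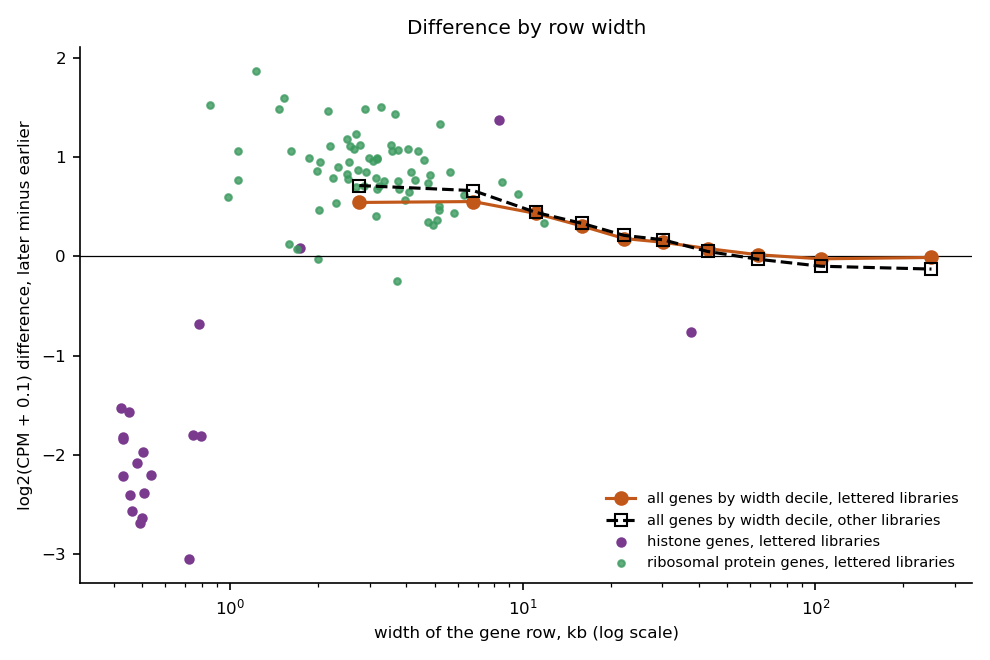
Median difference (later minus earlier, log2(CPM + 0.1), vertical axis) against the median width of the gene row in kb (log scale, horizontal axis) for deciles of all genes by width, in the 10 lettered libraries (orange circles) and the 6 other libraries (black squares), with single ribosomal protein genes (green) and replication-dependent histone genes (purple) of the lettered libraries. The median falls with width, at 0.54 in the lowest decile and -0.01 in the highest, ribosomal protein genes lie mostly above the line, and most histone genes lie far below it.

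The 6 libraries outside the lettered sets compared the same runs of numbers in samples that the calls had not used. The edits differ between those runs as well, and the libraries also differ in their X chromosomes. Reads on the X came from the 129 copy for 52.5%, 55.6% and 1.06% in 100kdel.C3, 245kdel.F9 and 4k.b.c.G12. In 680kinv.B10, F121-9R1 and F121-9R2 the values were 51.3%, 49.7% and 52.6%. Only 4k.b.c.G12 thus read mostly a single X copy, as the lettered libraries did. What this carries was not tested. Among 13774 genes tested there, 1348 were called higher (9.79%) and 254 lower (1.84%) in the later run, with a median of 0.20. These counts rested on single libraries: without 680kinv.B10 or without F121-9R2, limma called 0 genes, while 3288 and 3163 genes had an unadjusted p below 0.05. Of 2061 genes called higher between the lettered sets and tested here, 1994 (96.7%) were also higher in the other later libraries, against 63.8% of all genes, and 906 were called. Of 621 called lower, 602 (96.9%) were also lower, against 36.2% of all genes, and 134 were called. A test of the difference between the lettered and the other libraries (an interaction term in limma) called 0 of 13583 genes, with 551 at an unadjusted p below 0.05 and a smallest adjusted p of 0.344.

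**Figure D2:**
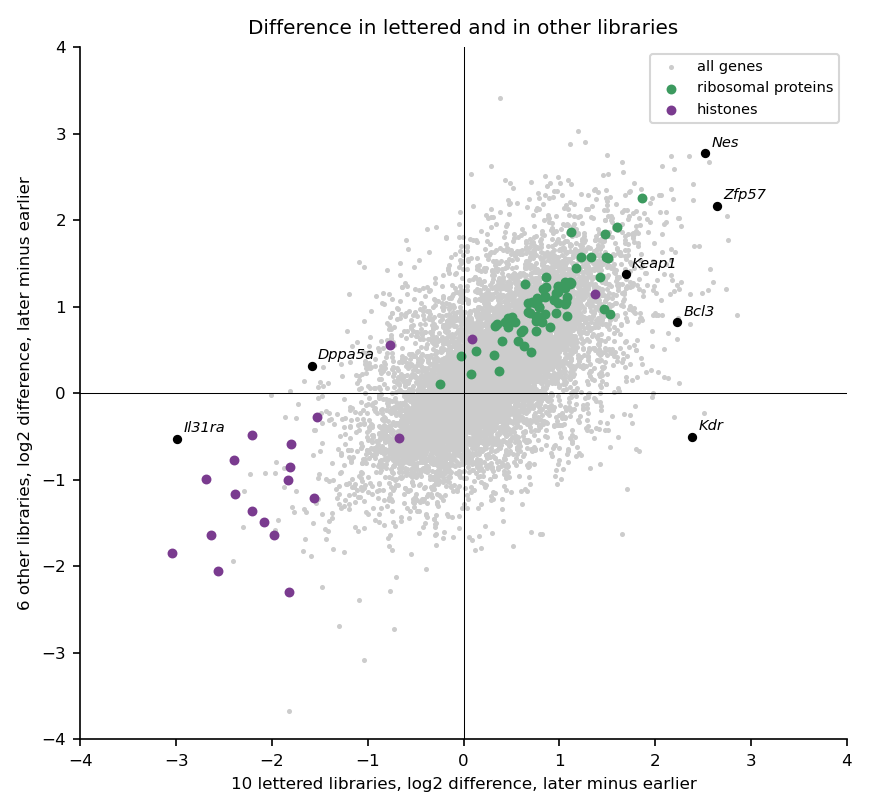
Each point is a gene, with its later minus earlier difference in the 10 lettered libraries (horizontal axis) and in the 6 other libraries (vertical axis), both as log2(CPM + 0.1), with ribosomal protein genes in green and histone genes in purple. Zfp57, Nes and Keap1 are far above 0 on both axes, while Il31ra, Dppa5a and Kdr, far from 0 on the horizontal axis, have differences of -0.53, 0.32 and -0.50 on the vertical axis.

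Genes were called on the mean of their 2 copies, so that the values on each copy describe these calls and are no separate test of them. Of 2032 genes called higher that were tested on each copy, 670 were called on both the 129 and the castaneus copy. Of 610 called lower, 217 were called on both. With the letters a, b and c as terms, 769 of the 2072 and 241 of the 622 genes were still called, and all 2694 kept their direction. Over all 13336 genes tested, that fit called 884 higher and 281 lower. Counts of lists in it are to be read against this general loss of calls.

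Zfp57 is a zinc finger protein that keeps DNA methylation at imprinted genes. Among called genes with a mean of at least 1 CPM whose sets did not overlap, it had the largest rise. It had 25.7, 19.9, 22.99, 18.7 and 27.9 CPM in the later set, against 3.85, 4.64, 2.89, 2.65 and 4.08 CPM in the earlier set. The lowest later library was far above the highest earlier one, the difference was 2.65 ± 0.20 (adjusted p = 3.37e-05), and it passed under every alternative tried. In the other libraries Zfp57 had 18.6, 18.2 and 24.3 CPM in the later run and 3.38, 6.61 and 3.87 CPM in the earlier run (difference 2.17, adjusted p = 0.0137). Nes, which encodes nestin, an intermediate filament of neural progenitors, had 9.95, 4.74, 16.3, 6.82 and 8.13 CPM in the later set, against 1.61, 2.09, 1.69, 1.04 and 0.841 CPM in the earlier set, a difference of 2.52 ± 0.34 (adjusted p = 0.000756). Itpka, an inositol trisphosphate kinase, had 6.35, 9.18, 3.25, 6.44 and 5.602 CPM in the later set, against 1.94, 1.88, 0.893, 1.11 and 0.497 CPM in the earlier set. Its sets did not overlap, and the difference was 2.27 ± 0.37 (adjusted p = 0.00197).

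The other genes with the largest rises were of mixed roles. Slc30a1, a zinc exporter at the plasma membrane, rose by 2.40 ± 0.53 (adjusted p = 0.00747), and Taf1c, a subunit of the factor that starts RNA polymerase I at ribosomal RNA genes, by 2.19 ± 0.43 (adjusted p = 0.00409). Kdr, the VEGF receptor of mesoderm and endothelium, averaged 2.01 ± 0.521 CPM in the later set and 0.456 ± 0.423 CPM in the earlier set. Its difference was 2.39 ± 0.59 (adjusted p = 0.0136), but in the other libraries it was -0.50, and edgeR did not call it (adjusted p = 0.0559). Igfbp7, a secreted binding protein of insulin-like growth factors, averaged 2.95 ± 1.56 CPM in the later set and 0.538 ± 0.397 CPM in the earlier set. Cd37, a tetraspanin of blood cells, averaged 2.75 ± 1.12 CPM in the later set and 0.631 ± 0.536 CPM in the earlier set. Camk2a, a calcium-dependent kinase, averaged 2.53 ± 1.13 CPM in the later set and 0.432 ± 0.1905 CPM in the earlier set. Vstm5, a membrane protein, averaged 19.5 ± 14.2 CPM in the later set and 3.67 ± 1.08 CPM in the earlier set, with c.del.A12 far above the other later libraries. The predicted gene Gm2848 averaged 1.93 ± 0.782 CPM in the later set and 0.322 ± 0.153 CPM in the earlier set. The last 5 had adjusted p-values between 0.00199 and 0.00937, and their sets did not overlap. Taf1c did not pass with the letters as terms (adjusted p = 0.0713).

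**Figure D3:**
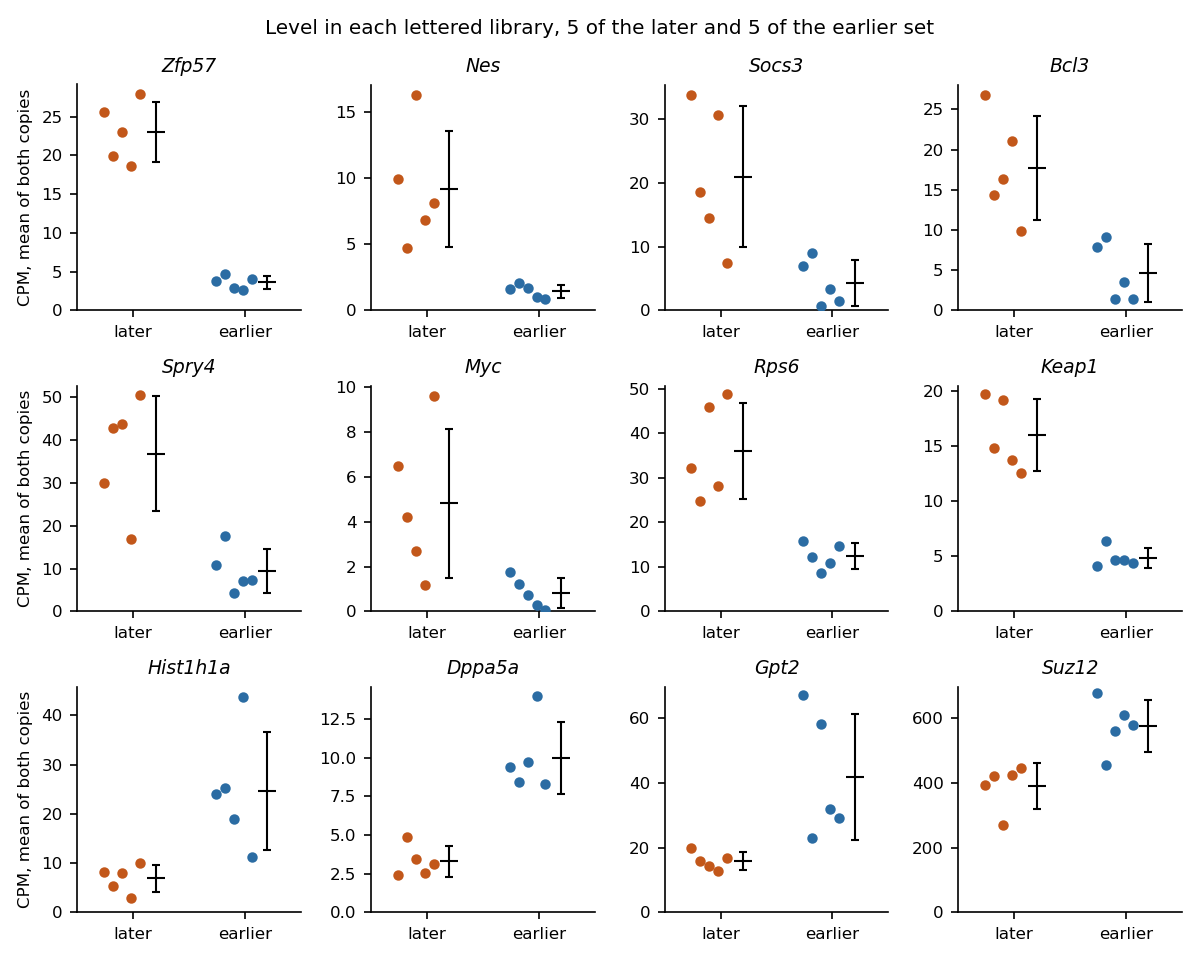
CPM of 12 genes in each library (points), with the mean and SD of each set (bars), the later set on the left of each panel and the earlier set on the right, each panel with its own axis from 0. The sets are apart for Zfp57, Nes, Bcl3, Rps6 and Keap1, which were higher in the later set, and for Hist1h1a, Dppa5a, Gpt2 and Suz12, which were lower, while Socs3, Spry4 and Myc overlap in 1 or more libraries.

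Of the 12 largest falls among called genes with a mean of at least 1 CPM whose sets did not overlap, 7 were histone genes. The other 5 were Il31ra, Rnf182, Mir6236, Ndrg2 and 2900060B14Rik, the last of which lost its call without any one of ab.del.D12 or the 5 earlier libraries (adjusted p = 0.0562 to 0.06997). Il31ra, a cytokine receptor subunit, had 46.5, 293, 327, 455 and 58.7 CPM in the later set, against 1178, 1386, 962, 3316 and 723 CPM in the earlier set. The later libraries spread widely, all below the earlier ones, and the difference of -2.99 ± 0.60 (adjusted p = 0.00474) was not found in the other libraries, at -0.53 (adjusted p = 0.281). Rnf182, a ubiquitin ligase, had 2.01, 5.19, 1.15, 0.683 and 1.905 CPM in the later set, against 12.1, 7.95, 9.52, 7.496 and 6.85 CPM in the earlier set, a difference of -2.23 ± 0.41 (adjusted p = 0.00319). Ndrg2, a stress-responsive gene of the NDRG family, averaged 0.624 ± 0.405 CPM in the later set and 1.97 ± 0.468 CPM in the earlier set. Its fall of -1.87 ± 0.57 (adjusted p = 0.0335) did not pass without any one of ab.del.D12, abc.del.A6, abc.del.E2, ab.del.D10 or c.del.B11 (adjusted p = 0.0507 to 0.0736). Il31ra, Ndrg2 and 2900060B14Rik did not pass with the letters as terms (adjusted p = 0.0589, 0.0815 and 0.132).

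Replication-dependent histone genes had the lowest median of all lists in the lettered libraries. Of 69 such genes on autosomes, 20 passed the filter on low values, a filter that a gene can pass through 1 set alone; 33 had no read in any of the 10 libraries. Of the 20, 14 were called lower and 1 higher, with a median of -1.91 against 0.20 over all genes. The same 14 were called lower under each of the 5 scalings, and 13 had sets that did not overlap. All 20 are members of the Hist1 cluster on chromosome 13.

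The end of a histone messenger RNA is what sets this family apart, so the stem-loop of 4 of the genes that fell is shown, from GENCODE M21 transcripts on GRCm38, with the 16 bases of the stem-loop in capitals and 5 bases on each side.
Hist1h1c (chr13:23739507-23739532, plus strand): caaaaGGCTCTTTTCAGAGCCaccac
Hist1h2bb (chr13:23747198-23747223, plus strand): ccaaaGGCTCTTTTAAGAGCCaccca
Hist1h3b (chr13:23752815-23752840, plus strand): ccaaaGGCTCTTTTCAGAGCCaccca
Hist1h4a (chr13:23760795-23760820, minus strand): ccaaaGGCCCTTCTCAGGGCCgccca
The arms of each stem are complementary. Transcripts of 14 of the 20 histone genes held this stem-loop, among them 10 of the 14 that fell. In Hist1h2bb, Hist1h3b and Hist1h4a it lay 23, 51 and 108 bases before the end of the annotated transcript. In Hist1h1c, Hist1h4j, Hist1h1e and Hist1h2be it lay 840, 385, 1153 and 1861 bases before that end. The 4 that fell without a match, Hist1h2bn, Hist1h2ak, Hist1h1a and Hist1h1b, had annotated transcripts of 381, 393, 741 and 743 bases. Whether these reach the end of the messenger RNA was not checked, so that a missing match does not show a missing stem-loop. Of 13126 other genes tested with a transcript, 23 (0.175%) held it. Hist1h2bc, the histone gene that rose (1.37 ± 0.43, adjusted p = 0.0376), had no match in its transcript and kept its call only without a.del.53 or without bc.del.B3 (adjusted p = 0.0518 to 0.0855 without any other library), and Hist1h2bp, with a match, had a difference of 0.08 (adjusted p = 0.902).

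Linker histones were among those that fell. Hist1h1c, which encodes the linker histone H1.2, had 0.331, 0.2504, 0.588, 0 and 0.536 CPM in the later set, against 2.89, 4.03, 2.57, 6.34 and 1.11 CPM in the earlier set. Every later library was below every earlier one, with a difference of -3.05 ± 0.56 (adjusted p = 0.00314). The 0 in b.del.D10 allows up to 0.273 CPM on the 129 copy and 0.313 CPM on the castaneus copy, the worth of 3 reads, a limit that covers counting error only. Hist1h1a, which encodes H1.1 and had the most reads of the family, had 8.29, 5.29, 7.98, 3.01 and 9.96 CPM in the later set, against 23.97, 25.2, 19.02, 43.8 and 11.3 CPM in the earlier set, a difference of -1.80 ± 0.36 (adjusted p = 0.00446). Here c.del.A12, the highest of the later set, was close below c.del.B11, the lowest of the earlier set. Hist1h1b, for H1.5, averaged 0.807 ± 0.432 CPM in the later set and 2.91 ± 1.36 CPM in the earlier set, and its call was lost without abc.del.E2 (adjusted p = 0.0502). Neither Hist1h1a nor Hist1h1b passed with the letters as terms (adjusted p = 0.0879 and 0.166).

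Core histone genes fell likewise. Hist1h2bb, for H2B, had 0.328, 0.554, 0.442, 0.638 and 0.395 CPM in the later set, against 2.97, 4.11, 3.53, 7.94 and 1.53 CPM in the earlier set, a difference of -2.69 ± 0.39 (adjusted p = 0.00105). Hist1h3b, for H3, had 0.284, 0.194, 0.156, 0.182 and 0.179 CPM in the later set, against 1.28, 2.09, 1.31, 3.62 and 0.951 CPM in the earlier set, a difference of -2.57 ± 0.39 (adjusted p = 0.00129). In both, bc.del.B3 was the highest of all 10 libraries and no library crossed between the sets. Hist1h4a, for H4, and Hist1h2ab, for H2A, had differences of -2.40 ± 0.45 and -2.38 ± 0.41 (adjusted p = 0.00336 and 0.00225), and Hist1h2ak (H2A, -2.21) did not pass without ab.del.D10 (adjusted p = 0.0576). Hist1h4a and Hist1h2ak did not pass with the letters as terms (adjusted p = 0.0615 and 0.224).

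Summed over all members, histone genes held 16.8, 13.7, 16.5, 9.84 and 24.4 CPM in the later set, against 52.6, 61.5, 45.9, 99.9 and 26.3 CPM in the earlier set. The sets did not overlap, with c.del.A12 and c.del.B11, the 2 libraries labelled c.del, next to each other. In the other libraries the sums were 24.3, 26.5 and 36.3 CPM in the later run and 40.1, 47.4 and 53.7 CPM in the earlier run, and 3 histone genes were called lower there. With the letters as terms, 5 histone genes were called lower. In the fit of only the ab.del and c.del libraries, 2 against 2 with the label as a block, 2 histone genes were called lower. Histone rows are among the narrowest. Other coding genes with a single exon had a median of 0.66 (133 genes). With the width trend removed, a trend fitted without the histone genes, 17 of them were called lower, with a median of -2.51. Near-identical copies in the cluster share sequence, so that the assignment of reads to single members is uncertain.

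**Figure D4:**
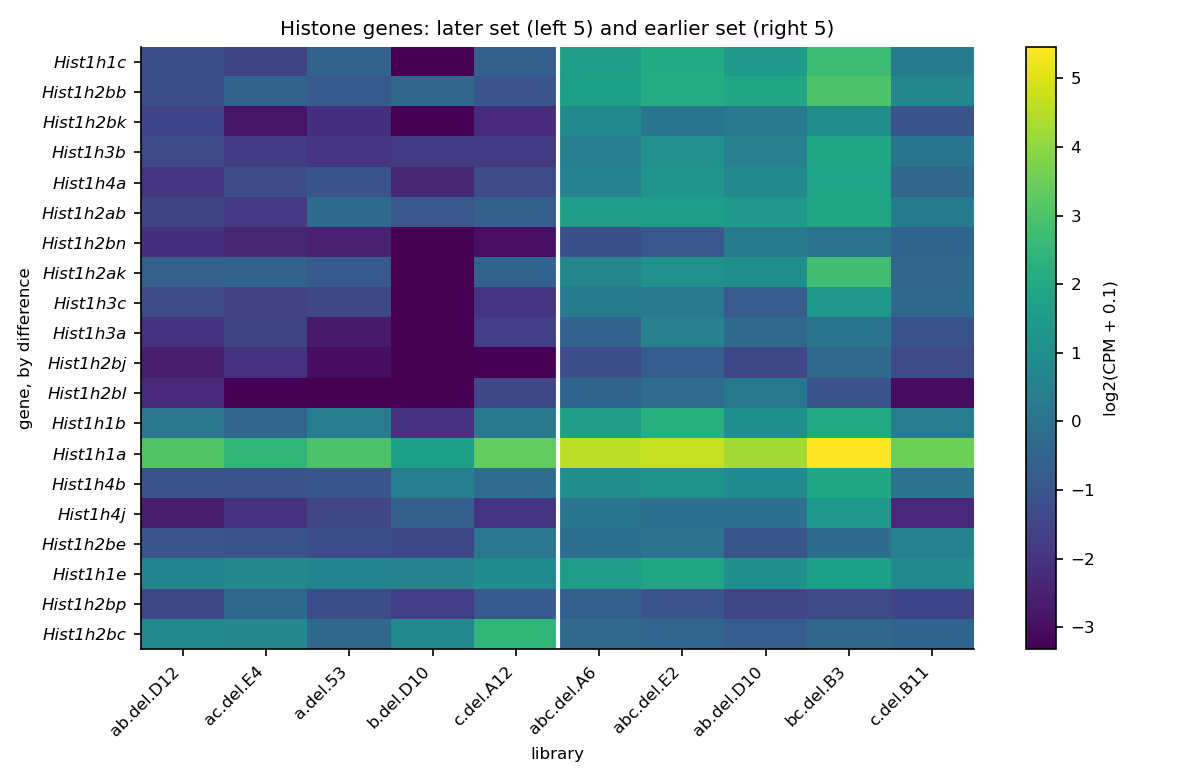
Heat map of log2(CPM + 0.1) for the 20 replication-dependent histone genes tested, ordered by their difference, in the 5 later (left of the white line) and 5 earlier libraries (right). The upper 17 genes are mostly darker on the left, and Hist1h2bc in the bottom row, called higher, is brighter there.

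Other histone genes gave few calls, while other RNAs without a poly(A) tail had a median below that of all genes. Of 11 replication-independent histone genes, which carry poly(A) tails, 3 were called higher and none lower, and 1 without ab.del.D10, c.del.B11, ab.del.D12 or a.del.53. H2afz, the histone variant H2A.Z, had 17.3, 22.8, 24.8, 17.4 and 20.6 CPM in the later set, against 12.9, 6.21, 5.44, 5.098 and 12.6 CPM in the earlier set, a rise of 1.38 ± 0.27 (adjusted p = 0.00409). Of 10 factors that process the histone messenger end, 2 were called higher and none lower, with a median of 0.06. Of 6 other RNAs without a poly(A) tail that could be tested, 2 were called lower and 1 higher. Their median was -1.45 against 0.20 over all genes, and 1 of the 6 had a positive difference. After median centring, and likewise with the width trend removed, 4 were called lower and 0 higher. In the other libraries 4 could be tested, with a median of -0.20 and 1 called higher. Mir6236, an annotated microRNA row, had 208, 286, 385, 225 and 269 CPM in the later set, against 978, 1318, 731, 3089 and 441 CPM in the earlier set, a fall of -1.97 ± 0.38 (adjusted p = 0.00414). Rmrp, the RNA of the RNase MRP particle, averaged 0.122 ± 0.174 CPM in the later set and 0.772 ± 0.475 CPM in the earlier set, and it kept its call only without ac.del.E4, b.del.D10 or ab.del.D10 (adjusted p = 0.0562 to 0.0781 without any other library). Mir6236 and Rmrp did not pass with the letters as terms (adjusted p = 0.0925 and 0.329), a fit that called 1 of the 11 replication-independent histone genes and 1 of the 10 processing factors, both higher. The part of the RNA end in the fall of histone genes was not tested.

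Promoters are shown for a histone gene that fell and for a ribosomal protein gene that rose, as members that moved together in opposite directions. They span 250 bases before to 50 bases after the start of the gene, from RefSeq on GRCm38.p6, with matches to CCAAT or TATAA on either strand in capitals.
Hist1h2bb (chr13:23746484-23746783, plus strand): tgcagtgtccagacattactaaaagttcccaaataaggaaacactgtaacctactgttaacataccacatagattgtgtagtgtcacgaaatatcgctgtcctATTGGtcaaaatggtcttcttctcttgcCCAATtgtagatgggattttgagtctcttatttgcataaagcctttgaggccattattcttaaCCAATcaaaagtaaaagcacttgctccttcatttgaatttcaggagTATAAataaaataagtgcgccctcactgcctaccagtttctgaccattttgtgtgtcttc
Rps28 (chr17:33824513-33824812, minus strand): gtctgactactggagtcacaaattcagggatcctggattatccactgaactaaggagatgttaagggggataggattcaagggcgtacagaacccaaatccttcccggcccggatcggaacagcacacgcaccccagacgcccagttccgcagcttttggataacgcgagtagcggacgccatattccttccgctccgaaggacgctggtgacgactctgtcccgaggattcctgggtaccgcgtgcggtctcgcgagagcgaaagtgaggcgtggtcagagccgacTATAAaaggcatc
The motif CCAAT, searched on both strands, was present in 16 of 18 histone promoters (88.9%), in 16 of 52 ribosomal protein promoters (30.8%) and in 38.9% of the promoters of tested genes. TATAA, on both strands, was in 14 of 18 (77.8%), in 12 of 52 (23.1%) and in 12.8%. Over all 32851 promoters of the table, the shares were 37.4% and 24.9%. A match describes these letters and is not a measured binding site.

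Most ribosomal protein genes rose. Of 71 tested, 50 were called higher and none lower, with a median of 0.85 against 0.20 over all genes, and 30 were called under every scaling. Rps6, the small-subunit protein that S6 kinase phosphorylates, had 32.3, 24.9, 45.9, 28.2 and 48.8 CPM in the later set, against 15.8, 12.3, 8.63, 10.9 and 14.7 CPM in the earlier set, a difference of 1.51 ± 0.22 (adjusted p = 0.000959). Rps28, another small-subunit protein, had 20.3, 14.7, 25.6, 12.5 and 27.6 CPM in the later set, against 10.3, 5.69, 5.02, 5.19 and 6.46 CPM in the earlier set, a difference of 1.60 ± 0.25 (adjusted p = 0.00166). Rplp1, of the acidic stalk of the large subunit, averaged 10.6 ± 3.91 CPM in the later set and 2.78 ± 0.835 CPM in the earlier set (1.86 ± 0.30, adjusted p = 0.00173). In all 3 the sets did not overlap, and a.del.53 and c.del.A12 were the highest of the later set.

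Summed over the family, ribosomal protein genes held 2148 to 3916 CPM in the later set and 1486 to 2005 CPM in the earlier set. In the other libraries 44 of 71 were called higher and none lower, with a median of 1.04. The count of 50 fell to 37 without ab.del.D10 and to 21 with the letters as terms, where the count over all genes fell from 2072 to 884. With the width trend removed, 18 were called higher and 2 lower, with a median of 0.26. Their rows are narrow, at a median of 3137 bases, and multi-exon coding genes under 5 kb that were no histones had a median of 0.61 (867 genes). How much of the rise belongs to short genes in general was not tested further.

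Of 27 nucleolar and MYC target genes 13 were called higher and none lower, 7 under every scaling and 8 with the letters as terms, with a median of 0.43. Mycn, a MYC family factor of stem cells, had 36.96, 33.3, 43.7, 29.6 and 26.7 CPM in the later set, against 19.6, 18.4, 8.48, 11.2 and 8.89 CPM in the earlier set, a difference of 1.42 ± 0.24 (adjusted p = 0.00223), and was at 0.14 on 129 values alone (adjusted p = 0.939). Myc itself had 6.47, 4.19, 2.67, 1.17 and 9.59 CPM in the later set, against 1.74, 1.201, 0.742, 0.294 and 0.0657 CPM in the earlier set, a difference of 2.57 ± 0.66 (adjusted p = 0.0159). Only b.del.D10 of the later set fell within the range of the earlier set for Myc. Ncl, the abundant nucleolar protein nucleolin, had 469.6, 369, 447, 374 and 564 CPM in the later set, against 164, 192, 166, 235 and 177 CPM in the earlier set, a difference of 1.25 ± 0.14 (adjusted p = 0.000358). On castaneus values alone its difference was -0.37 (adjusted p = 0.888). Its row spans 14737 bases.

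Rrs1, a ribosome assembly factor, averaged 10.6 ± 2.14 CPM in the later set and 3.73 ± 1.39 CPM in the earlier set (1.54 ± 0.28, adjusted p = 0.00303). Odc1, which makes polyamines and is a textbook MYC target, rose by 1.28 ± 0.33 (adjusted p = 0.0168), did not pass without ab.del.D12 (adjusted p = 0.0507) and was at -0.14 on the 129 copy alone (adjusted p = 0.938). Of 43 splicing factor genes, 18 were called higher and 3 lower, 11 and 3 of them under every scaling, and 14 higher and 1 lower with the letters as terms. Srsf7, a serine-arginine splicing factor, averaged 109 ± 14.7 CPM in the later set and 58.9 ± 8.77 CPM in the earlier set (0.89 ± 0.13, adjusted p = 0.000908). Of 19 host genes of small nucleolar RNAs, 9 were called higher and none lower, 6 with the letters as terms, with a median of 0.84. Malat1, a long nuclear RNA, had 3577, 3989.9, 488, 6098 and 2589.6 CPM in the later set, against 890.4, 524, 649.6, 1519 and 593 CPM in the earlier set. It was called higher (1.73 ± 0.53, adjusted p = 0.0349), but a.del.53 lay below every earlier library, and it kept its call only without a.del.53 or without bc.del.B3 (adjusted p = 0.0544 to 0.0811 without any other library).

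Among the signals of the medium, LIF and STAT3 genes had the highest median of all lists with at least 7 genes tested, at 1.03, and 7 of 13 were called higher and none lower. Socs3, the feedback inhibitor that STAT3 induces, had 33.7, 18.6, 14.5, 30.6 and 7.49 CPM in the later set, against 6.96, 8.99, 0.757, 3.28 and 1.54 CPM in the earlier set. Its difference was 2.56 ± 0.59 (adjusted p = 0.00948), with c.del.A12 inside the range of the earlier set. Bcl3, an NF-kappaB family cofactor that STAT3 induces, had 26.8, 14.4, 16.3, 21.1 and 9.92 CPM in the later set, against 7.89, 9.09, 1.37, 3.49 and 1.46 CPM in the earlier set. The sets did not overlap, and the difference was 2.23 ± 0.49 (adjusted p = 0.00737). Osmr, the oncostatin M receptor, rose by 1.67 ± 0.49 and Pim3, a kinase, by 1.54 ± 0.47, with adjusted p-values of 0.0289 and 0.0335, and each lost its call without any one of 5 libraries: ab.del.D12, b.del.D10 and c.del.B11 for both, abc.del.A6 and ac.del.E4 for Osmr, and ab.del.D10 and bc.del.B3 for Pim3 (adjusted p = 0.0505 to 0.0932).

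The number of LIF genes called depended on single libraries. Under every scaling 3 of 13 were called, and without c.del.B11 or without ab.del.D12 3 were called. With the letters as terms 7 of the 13 were called. In the other libraries 1 of 13 was called, Socs3 had a difference of 1.20 (adjusted p = 0.277) and Bcl3 of 0.82 (adjusted p = 0.07902), and the list's median was 0.45. Stat3 itself had a difference of 0.58 ± 0.25 (adjusted p = 0.119) and passed without c.del.A12 (adjusted p = 0.0375).

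FGF and ERK feedback genes, which ERK activity induces, included 4 of 15 called higher and none lower, 3 of them under every scaling. Spry4, an inhibitor of receptor tyrosine kinase signalling, had 29.9, 42.9, 43.8, 16.8 and 50.4 CPM in the later set, against 10.9, 17.6, 4.27, 7.07 and 7.41 CPM in the earlier set. The difference was 2.01 ± 0.36 (adjusted p = 0.00277), and b.del.D10 lay just below abc.del.E2. Dusp6, the phosphatase of ERK, had 1.85, 2.09, 1.1999, 3.72 and 2.88 CPM in the later set, against 0.919, 0.804, 0.397, 0.474 and 0.64004 CPM in the earlier set. Spry2, a relative of Spry4, had 20.05, 21.5, 19.99, 19.7 and 16.7 CPM in the later set, against 13.8, 12.1, 6.2001, 6.54 and 9.72 CPM in the earlier set. Neither overlapped between the sets, with differences of 1.67 ± 0.36 and 1.08 ± 0.22 (adjusted p = 0.00644 and 0.00476). In the other libraries Spry4, Dusp6 and Spry2 had differences of 1.16, 0.39 and 1.09 (adjusted p = 0.392, 0.7697 and 0.201), and limma called 0 of the 15 genes there, with 2 at an unadjusted p below 0.05, while edgeR called 1.

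Immediate early genes, which growth factors and stress induce within minutes, had a median of 0.85, and 7 of 19 were called higher and none lower. Srf, the serum response factor, had 3.91, 4.17, 3.11, 4.21 and 3.89 CPM in the later set, against 0.884, 1.695, 0.881, 1.66 and 1.27 CPM in the earlier set, a difference of 1.57 ± 0.27 (adjusted p = 0.00227) with no overlap. Ctgf, a matrix protein that YAP and serum response induce, averaged 2.09 ± 1.196 CPM in the later set and 0.275 ± 0.169 CPM in the earlier set (2.35 ± 0.57, adjusted p = 0.0127), with b.del.D10 inside the earlier range. Jun and Maff, of the AP-1 and small Maf families, were low throughout, with Jun at 0.853 ± 0.403 CPM in the later set and 0.183 ± 0.22996 CPM in the earlier set. Maff averaged 1.33 ± 0.4196 CPM in the later set and 0.459 ± 0.557 CPM in the earlier set. Jun lost its call without ab.del.D10, ab.del.D12 or c.del.B11, and Maff kept its call only without abc.del.A6 or without c.del.B11 (adjusted p = 0.0536 to 0.0908 where lost). Without ab.del.D10 or without ab.del.D12, 3 of the 19 were called, and 3 were called under every scaling. Of 24 YAP and cytoskeleton genes, 8 were called higher and 1 lower, and 4 were called higher without ab.del.D12 or without ac.del.E4. With the letters as terms the counts were 2 immediate early and 5 YAP and cytoskeleton genes higher, and Ctgf, Jun and Maff did not pass (adjusted p = 0.0559, 0.0519 and 0.301).

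Of 15 Wnt and GSK3 targets 2 were called higher and 1 lower. Apcdd1, a Wnt inhibitor that Wnt induces, had 12.6, 16.2, 9.36, 10.6 and 23.9 CPM in the later set, against 8.06, 6.83, 6.11, 4.29 and 8.43 CPM in the earlier set, a difference of 1.05 ± 0.26 (adjusted p = 0.0135) with no overlap and -0.35 in the other libraries. Znrf3, a ligase that removes Wnt receptors, averaged 195 ± 17.9 CPM in the later set and 248 ± 20.7 CPM in the earlier set (-0.35 ± 0.10, adjusted p = 0.0232), a call lost without ab.del.D10, ab.del.D12, abc.del.A6 or c.del.B11 (adjusted p = 0.0519 to 0.0687) and with the letters as terms (adjusted p = 0.134), where 3 of the targets were called higher and 1 lower. Nodal and TGF-beta genes had 2 of 13 called higher and 1 lower, none of them without ab.del.D10, c.del.B11 or ab.del.D12. The fit with the letters as terms called 2 of the 13 higher and none lower. Without those terms limma called 0 of 7 BMP and Id genes, with 1 at an unadjusted p below 0.05, and edgeR called 0.

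Core pluripotency genes had 6 of 12 called higher and 1 lower, but 2 higher and 1 lower under every scaling, and 0 higher with the width trend removed. Sox2 had 38.2, 37.7, 32.2, 21.4 and 31.8 CPM in the later set, against 19.7, 14.8, 11.2, 19.99 and 15.3 CPM in the earlier set, a difference of 0.99 ± 0.19 (adjusted p = 0.00424) with no overlap. Pou5f1, which encodes OCT4, had 26.8, 18.1, 44.6, 16.3 and 37.4 CPM in the later set, against 14.8, 18.5, 10.5, 11.8 and 8.95 CPM in the earlier set, and its difference of 1.08 ± 0.28 (adjusted p = 0.0161) came with overlap. With the letters as terms it did not pass (adjusted p = 0.0909), and 4 of the 12 were called higher and 1 lower. Dppa5a, a small RNA-binding protein of naive cells, went the other way, with 2.43, 4.88, 3.45, 2.57 and 3.15 CPM in the later set, against 9.37, 8.45, 9.74, 14.02 and 8.29 CPM in the earlier set. Every later library was below every earlier one (-1.59 ± 0.23, adjusted p = 0.00111), and in the other libraries the difference was 0.32 (adjusted p = 0.514).

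Among naive pluripotency genes, 4 of 17 were called higher and none lower: Zfp57, Gbx2, Klf4 and Tbx3, of which Gbx2 lost its call without ab.del.D10, ab.del.D12 or ac.del.E4 (adjusted p = 0.0575 to 0.0651). The letters as terms gave 6 of the 17 called higher. Klf4, a direct target of STAT3, had 21.9, 15.2, 13.9, 19.4 and 17.6 CPM in the later set, against 12.5, 11.1, 4.64, 9.56 and 4.21 CPM in the earlier set, a difference of 1.17 ± 0.29 (adjusted p = 0.0137). Tbx3, which sustains Nanog, had 128, 113, 81.5, 89.3 and 138 CPM in the later set, against 73.5, 49.4, 39.9, 52.4 and 42.4 CPM in the earlier set, a difference of 1.09 ± 0.18 (adjusted p = 0.00199). Both were apart between the sets and were higher in the other later libraries too, by 0.90 and 0.93. Esrrb, a target of GSK3 inhibition, averaged 758 ± 86.9 CPM in the later set and 809.5 ± 159 CPM in the earlier set (-0.08 ± 0.13, adjusted p = 0.699). Of 12 formative and primed genes, 2 were called higher and 1 lower, and with the letters as terms 1 each way. Foxd3 averaged 4.64 ± 2.07 CPM in the later set and 1.504 ± 0.562 CPM in the earlier set (1.52 ± 0.33, adjusted p = 0.00744). Lin28b, an inhibitor of let-7 processing, averaged 105 ± 10.6 CPM in the later set and 158 ± 26.7 CPM in the earlier set (-0.57 ± 0.13, adjusted p = 0.00762). Neither overlapped between the sets.

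**Figure D5:**
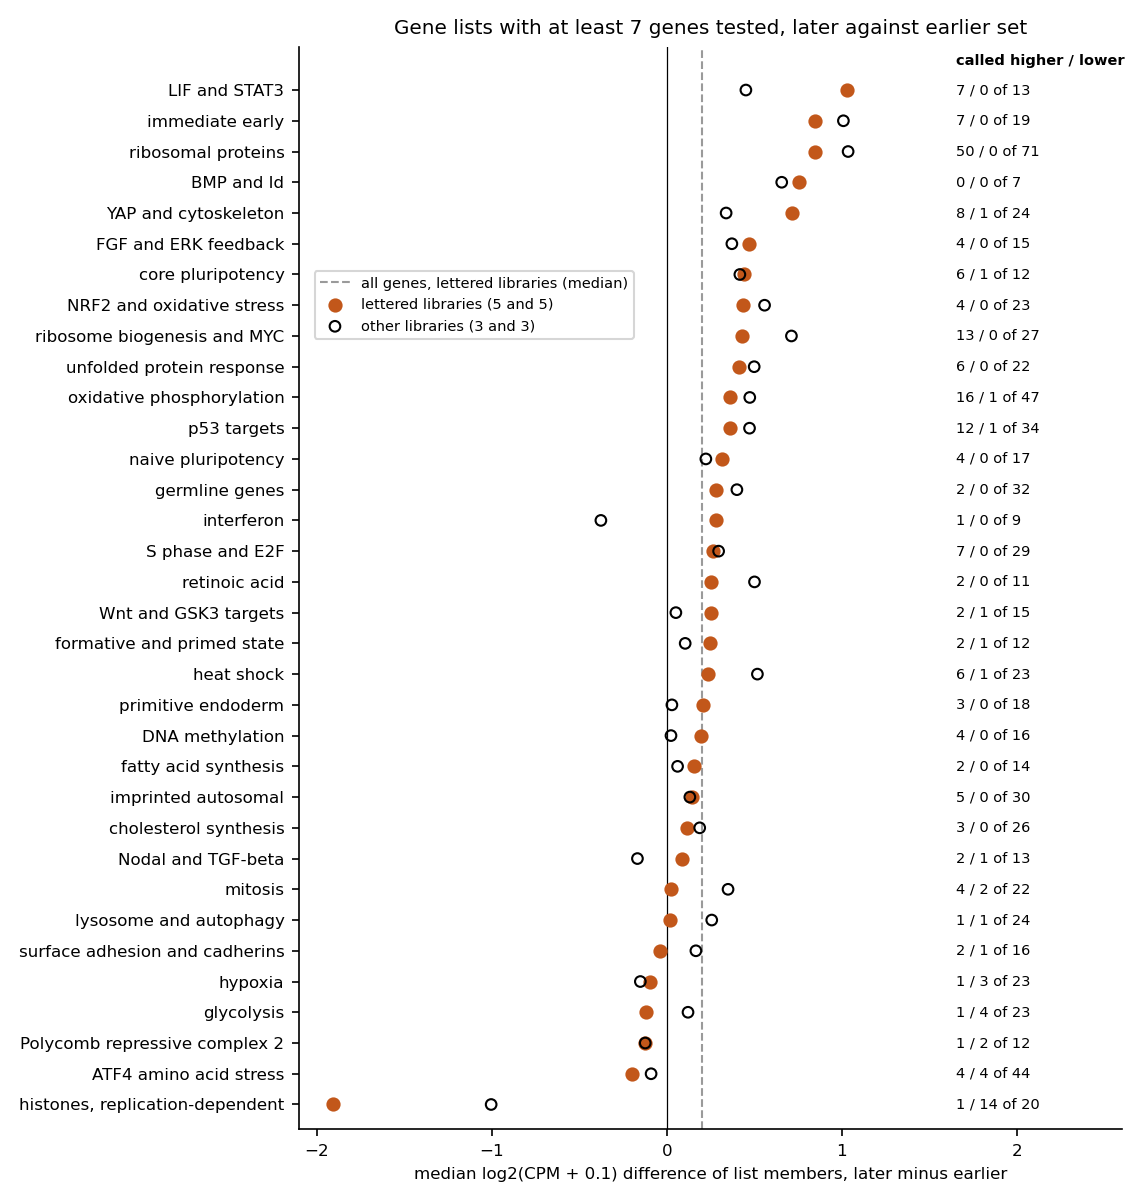
Median later minus earlier difference (log2(CPM + 0.1), horizontal axis) of the members of each gene list with at least 7 genes tested, in the 10 lettered libraries (filled) and in the 6 other libraries (open), with the number called higher and lower of those tested at the right and the median of all genes, 0.20, as a dashed line. LIF and STAT3 genes stand at 1.03, ribosomal proteins at 0.85 and histones at -1.91.

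Stress pathways were mixed. The p53 list had 12 of 34 called higher and 1 lower, 6 and 1 under every scaling, with a median of 0.36. Pmaip1, the pro-apoptotic NOXA, had 5.65, 9.92, 12.3, 7.48 and 10.5 CPM in the later set, against 3.75, 4.42, 2.705, 4.81 and 2.76 CPM in the earlier set, a difference of 1.28 ± 0.25 (adjusted p = 0.00445). Epha2, an ephrin receptor, averaged 57.97 ± 11.5 CPM in the later set and 25.2 ± 9.73 CPM in the earlier set (1.26 ± 0.22, adjusted p = 0.00283). Trp53 itself averaged 100.1 ± 7.78 CPM in the later set and 53.9 ± 8.31 CPM in the earlier set (0.90 ± 0.12, adjusted p = 0.000714). The canonical targets Cdkn1a (0.69 ± 0.24, adjusted p = 0.0604) and Mdm2 (-0.35 ± 0.23, adjusted p = 0.309) were not called, although Cdkn1a passed without abc.del.A6 (adjusted p = 0.0383) or without b.del.D10 (adjusted p = 0.0143). In the same list, 8 genes were called higher without c.del.A12, and with the letters as terms 6 higher and 2 lower.

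Amino acid stress genes under ATF4 had 4 of 44 called in each direction, with a median of -0.20, and after median centring 2 were called higher and 16 lower. Gpt2, which makes alanine from pyruvate, had 19.7, 15.8, 14.4, 12.7 and 16.7 CPM in the later set, against 66.9, 22.8, 58.1, 31.98 and 29.02 CPM in the earlier set, a difference of -1.28 ± 0.26 (adjusted p = 0.00534) with no overlap. Mthfd2, a mitochondrial folate enzyme, averaged 9.51 ± 2.75 CPM in the later set and 21.7 ± 7.67 CPM in the earlier set (-1.18 ± 0.27, adjusted p = 0.00921). Of those called higher, Ppp1r15a, the GADD34 phosphatase subunit, averaged 4.24 ± 1.25 CPM in the later set and 1.94 ± 0.386 CPM in the earlier set (1.06 ± 0.27, adjusted p = 0.01402). Calls in the higher direction numbered 2 without abc.del.E2, ab.del.D10, c.del.B11, ab.del.D12 or a.del.53. The letters as terms left 1 of the 44 called higher and 2 lower, and Ppp1r15a did not pass (adjusted p = 0.101). In the other libraries 1 of the 44 was called, lower.

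Of 22 unfolded protein response genes 6 were called higher and none lower, 2 under every scaling. Hspa5, the chaperone BiP, had 17.9, 19.8, 25.7, 22.04 and 33.3 CPM in the later set, against 12.2, 12.1, 8.92, 13.8 and 9.91 CPM in the earlier set, a difference of 1.04 ± 0.19 (adjusted p = 0.00297) with no overlap. Dnajb9, its cochaperone, averaged 3.60002 ± 1.17 CPM in the later set and 1.42 ± 0.252 CPM in the earlier set (1.25 ± 0.27, adjusted p = 0.007502). The calls of Hyou1 and Xbp1, a chaperone and a transcription factor of this response, were both lost without a.del.53, ab.del.D10, c.del.A12 or c.del.B11, and that of Xbp1 also without abc.del.E2 or b.del.D10 (adjusted p = 0.0538 to 0.0974), and the list's count fell to 3 without ab.del.D10, c.del.B11 or a.del.53. Of 23 heat shock genes 6 were called higher and 1 lower. Hsph1, a chaperone of the HSP110 class, averaged 109 ± 18.6 CPM in the later set and 61.6 ± 9.98 CPM in the earlier set (0.82 ± 0.14, adjusted p = 0.00283). The letters as terms left 2 unfolded protein response genes and 2 heat shock genes called higher and none lower, and Dnajb9, Hyou1 and Xbp1 did not pass (adjusted p = 0.124, 0.129 and 0.127).

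Keap1, the adaptor that keeps NRF2 low, had 19.7, 14.9, 19.2, 13.7 and 12.6 CPM in the later set, against 4.16, 6.44, 4.68, 4.69 and 4.39 CPM in the earlier set. The sets were far apart, the difference was 1.69 ± 0.19 (adjusted p = 0.000383), it passed under every alternative tried, and the other libraries differed by 1.37. Of the NRF2 list, 4 of 23 were called higher and none lower, and 7 were called higher without bc.del.B3. Gclc, of glutathione synthesis, averaged 141 ± 10.5 CPM in the later set and 98.5 ± 8.28 CPM in the earlier set (0.52 ± 0.10, adjusted p = 0.003402), not called after median centring (adjusted p = 0.256). Txn1, thioredoxin, averaged 124 ± 22.1 CPM in the later set and 71.1 ± 5.81 CPM in the earlier set (0.78 ± 0.13, adjusted p = 0.00169).

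Metabolic lists differed in direction. Hypoxia genes had 1 of 23 called higher and 3 lower, and glycolysis genes 1 of 23 higher and 4 lower. Of the hypoxia genes 1 was called lower without ab.del.D10, c.del.B11, ab.del.D12 or b.del.D10. Bnip3, a mitophagy receptor that HIF induces, had 1.62, 6.46, 2.53, 2.84 and 2.13 CPM in the later set, against 7.63, 6.96, 11.9, 6.41 and 37.8 CPM in the earlier set, a difference of -1.94 ± 0.47 (adjusted p = 0.0117), and c.del.B11 stood far above the other libraries. Higd1a, another HIF target, went the other way, at 20.8 ± 2.104 CPM in the later set and 10.6 ± 3.08 CPM in the earlier set (1.01 ± 0.19, adjusted p = 0.00367). Gapdh, a glycolytic enzyme, averaged 16.2 ± 6.42 CPM in the later set and 6.47 ± 1.72 CPM in the earlier set (1.25 ± 0.28, adjusted p = 0.00864). The calls of Aldoc, Ldhb, Ldha and Pfkl, all lower, were each lost without ab.del.D10 or without ab.del.D12 (adjusted p = 0.0557 to 0.114), and those of Ldhb, Ldha and Pfkl without 4 or more other libraries as well. Gapdh, Aldoc, Ldhb and Pfkl did not pass with the letters as terms (adjusted p = 0.0628, 0.183, 0.385 and 0.0618), which left 1 glycolysis gene called in each direction. Oxidative phosphorylation genes had 16 of 47 called higher and 1 lower, 4 and 1 under every scaling, with a median of 0.36. Cycs, cytochrome c, had 6.22, 4.16, 7.79, 4.46 and 5.81 CPM in the later set, against 2.95, 3.14, 1.42, 1.82 and 2.85 CPM in the earlier set, a difference of 1.22 ± 0.28 (adjusted p = 0.00887), and with the width trend removed 2 of the 47 were called higher and 6 lower. With the letters as terms Cycs did not pass (adjusted p = 0.0821), and 4 of the 47 were called higher and none lower. Cholesterol synthesis had 3 of 26 and fatty acid synthesis 2 of 14 called higher, and none lower, and 1 cholesterol gene was called higher without ab.del.D10, ab.del.D12 or a.del.53. The letters as terms left 1 cholesterol gene called and no fatty acid gene, of which 4 had an unadjusted p below 0.05 in limma. Scap, which escorts SREBP, averaged 24.8 ± 1.13 CPM in the later set and 14.8 ± 2.26 CPM in the earlier set (0.75 ± 0.13, adjusted p = 0.00277). Lysosome and autophagy genes had 1 of 24 called in each direction, and Rragd, a GTPase of the mTORC1 pathway, averaged 10.2 ± 2.95 CPM in the later set and 20.97 ± 6.97 CPM in the earlier set (-1.03 ± 0.24, adjusted p = 0.0107).

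S phase genes under E2F had 7 of 29 called higher and none lower, 4 under every scaling, where 15.5% of all genes were called higher. The list's median was 0.26, close to the 0.20 over all genes, while that of the S phase histones was -1.91. All 29 members had a positive difference, against 8642 of 13336 over all genes. After median centring the list's median was -0.05, against -0.11 over all genes. E2f1 had 18.2, 14.9, 12.2, 10.8 and 17.5 CPM in the later set, against 9.52, 8.72, 7.48, 7.66 and 6.12 CPM in the earlier set, a difference of 0.88 ± 0.19 (adjusted p = 0.00642). Pcna, the replication clamp, had 33.2, 24.3, 38.6, 16.97 and 34.1 CPM in the later set, against 15.8, 14.3, 13.1, 14.7 and 12.6 CPM in the earlier set, a difference of 1.00 ± 0.20 (adjusted p = 0.004596). Both were apart between the sets, and the list's count fell to 4 without ab.del.D10, ab.del.D12 or c.del.A12 and to 1 with the width trend removed. Mitosis genes had 4 of 22 called higher and 2 lower, and 2 were called higher without abc.del.A6, ab.del.D10, c.del.B11 or ab.del.D12. Kif11, the motor that separates spindle poles, had 128, 123, 99.5, 116 and 117 CPM in the later set, against 179, 172, 191, 203 and 190.2 CPM in the earlier set, a fall of -0.68 ± 0.10 (adjusted p = 0.000908). No later library reached the earlier ones. Cenpe, a kinetochore motor, averaged 104 ± 17.8 CPM in the later set and 67.9 ± 12.3 CPM in the earlier set (0.62 ± 0.14, adjusted p = 0.00972). Pcna and Cenpe did not pass with the letters as terms (adjusted p = 0.0533 and 0.0685), which left 2 S phase genes called higher, and 1 mitosis gene in each direction.

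Of 16 DNA methylation genes 4 were called higher and none lower, a count that held with each library left out. Beside Zfp57 these were Trim28, Mbd1 and Mbd3. Trim28, the corepressor that Zfp57 recruits, averaged 81.5 ± 7.99 CPM in the later set and 51.6 ± 13.7 CPM in the earlier set (0.69 ± 0.16, adjusted p = 0.00982). Mbd1, of the methyl-CpG binding family, averaged 11.4 ± 1.91 CPM in the later set and 5.04 ± 1.47 CPM in the earlier set (1.20 ± 0.22, adjusted p = 0.002998). Mbd3, a relative in the NuRD complex, averaged 9.57 ± 1.56 CPM in the later set and 5.28 ± 1.18 CPM in the earlier set (0.86 ± 0.20, adjusted p = 0.0105). Mbd1 passed under every scaling, while Trim28 and Mbd3 did not pass after median centring (adjusted p = 0.0712 and 0.0508).

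Of 30 imprinted genes 5 were called higher and none lower, their sets did not overlap, and 9 were called higher without a.del.53. Kcnq1ot1, the long antisense RNA of the Kcnq1 cluster, had 349, 463, 368, 386 and 295 CPM in the later set, against 189.6, 193, 205, 179 and 232 CPM in the earlier set, a difference of 0.89 ± 0.12 (adjusted p = 0.000756), and differed by 1.31 in the other libraries (adjusted p = 0.0134). Mest, expressed from the paternal copy, had 20.95, 20.1, 54.6, 18.9 and 21.5 CPM in the later set, against 8.17, 12.8, 7.72, 5.42 and 14.97 CPM in the earlier set. Here a.del.53 stood far above the rest, and the difference was 1.42 ± 0.32 (adjusted p = 0.00808). Grb10, a growth factor receptor adaptor, averaged 6.36 ± 3.84 CPM in the later set and 1.97 ± 0.628 CPM in the earlier set (1.53 ± 0.34, adjusted p = 0.008298) and -0.62 in the other libraries. H13, a signal peptide peptidase, averaged 21.99 ± 1.88 CPM in the later set and 13.3 ± 2.902 CPM in the earlier set (0.75 ± 0.16, adjusted p = 0.00597). Mest, Grb10 and H13 did not pass with the letters as terms (adjusted p = 0.151, 0.0625 and 0.0503), where 3 imprinted genes were called higher and 1 lower. These are means of both copies, so that they do not show which copy changed.

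The list of Polycomb repressive complex 2 genes had 2 of 12 called lower and 1 higher, each under every scaling. The 1 called higher was Eprn, which is not a subunit of the complex. Suz12, a core subunit, had 393, 421, 271, 425 and 447 CPM in the later set, against 678, 456, 562, 609 and 580.3 CPM in the earlier set, a difference of -0.57 ± 0.14 (adjusted p = 0.0145) with no overlap. Rbbp4, a histone-binding subunit, averaged 76.5 ± 6.33 CPM in the later set and 103 ± 4.11 CPM in the earlier set (-0.43 ± 0.09, adjusted p = 0.00692). Neither passed with the letters as terms (adjusted p = 0.201 and 0.101). Eprn, named Ephemeron and known to bear on exit from the naive state in the mouse, had 3.18, 6.42, 3.65, 0.684 and 3.64 CPM in the later set, against 0.259, 0.174, 0.136, 0.474 and 1.196 CPM in the earlier set, a difference of 2.75 ± 0.58 (adjusted p = 0.00607), and b.del.D10 lay inside the earlier range. Of 16 surface adhesion genes 2 were called higher and 1 lower. Jam2, an adhesion molecule, averaged 744 ± 173 CPM in the later set and 422 ± 75.7 CPM in the earlier set (0.80 ± 0.16, adjusted p = 0.00498). Lama5, a laminin chain, averaged 48.8 ± 13.6 CPM in the later set and 24.2 ± 6.48 CPM in the earlier set (1.00 ± 0.21, adjusted p = 0.00624). Cdh3, which encodes P-cadherin, was the one called lower. It averaged 12.6 ± 4.23 CPM in the later set and 20.6 ± 3.42 CPM in the earlier set (-0.74 ± 0.20, adjusted p = 0.0203), and its call was lost without ab.del.D12 or abc.del.A6 (adjusted p = 0.05096 to 0.0561) and with the letters as terms (adjusted p = 0.279). Both lists of surface and Polycomb genes had medians below that of all genes, at -0.04 and -0.13.

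Markers of other cell types differed in level from list to list. Of 28 autosomal 2-cell-like genes none passed the filter, and 16 had no read in any library. Of 20 fibroblast markers 5 could be tested, with a summed level of 10.2 to 15.9 CPM in the later set and 6.93 to 9.10 CPM in the earlier set, and 1, Fbn1, was called higher. Of 15 mesoderm and endoderm onset genes 10 were below the filter, which a gene can pass through 1 set alone. Of the 5 tested, 3 were called higher, and the list summed to 4.76 to 8.11 CPM in the later set and 1.63 to 2.64 CPM in the earlier set. T, the mesoderm factor brachyury and a Wnt target, had 1.17, 0.625, 0.3704, 0.7297 and 0.701 CPM in the later set, against 0.0261, 0.0915, 0.02596, 0.09001 and 0 CPM in the earlier set, a difference of 2.46 ± 0.41 (adjusted p = 0.00202). All earlier values of T were below the filter's 0.2 CPM, so that it passed through the later set alone, where it is high. Of 16 neural markers 11 were below the filter, and 3 of the 5 tested were called higher, Nes, Pax6 and Stmn2. The neural list had sums of 226 to 334 CPM in the later set and 158 to 237 CPM in the earlier set. Pax6 kept its call only without abc.del.E2, c.del.A12 or c.del.B11, and Stmn2 only without a.del.53 or bc.del.B3 (adjusted p = 0.0523 to 0.112 where lost). Primitive endoderm genes had 3 of 18 called higher, none under every scaling, and 1 without any one of abc.del.A6, abc.del.E2, ab.del.D10, ab.del.D12, ac.del.E4 or a.del.53. The list summed to 464 to 641 CPM in the later set and 369 to 531 CPM in the earlier set. Col4a1, a basement membrane collagen, averaged 14.4 ± 4.31 CPM in the later set and 6.98 ± 2.23 CPM in the earlier set (1.03 ± 0.25, adjusted p = 0.0122). Of 5 trophoblast markers limma and edgeR called 0, with 2 at an unadjusted p below 0.05. Of 11 retinoic acid genes 2 were called higher. Rarg, a retinoic acid receptor, averaged 7.65 ± 4.27 CPM in the later set and 2.19 ± 0.874 CPM in the earlier set (1.68 ± 0.38, adjusted p = 0.00859). Of 32 germline genes 2 were called higher, Dazl and Tdrkh, both lost without any one of abc.del.A6, ab.del.D10, c.del.B11, ab.del.D12, ac.del.E4 or c.del.A12 (adjusted p = 0.0505 to 0.111). Germline genes summed to 191 to 393 CPM in the later set and 248 to 339 CPM in the earlier set. Irf1 alone of 9 interferon genes was called, at 5.64 ± 1.28 CPM in the later set and 2.25 ± 1.14 CPM in the earlier set (1.38 ± 0.31, adjusted p = 0.00836). Fbn1, Pax6, Stmn2, Col4a1, Rarg and Tdrkh did not pass with the letters as terms (adjusted p = 0.277, 0.204, 0.0569, 0.0821, 0.0743 and 0.232), a fit in which 2 of the 5 mesoderm and endoderm onset genes and 2 of the 9 interferon genes were called higher, and 1 of the 5 neural markers. In that fit limma called 0 primitive endoderm genes, 0 fibroblast markers and 0 retinoic acid genes, with 5, 0 and 4 at an unadjusted p below 0.05. The part of such cells in the other lists was not tested.

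Dppa2 and Dppa4, neighbouring genes of naive cells where the authors drew segments of their own in the table, were read with the same fit. Dppa2 had 12.01, 12.03, 16.8, 28.7 and 29.9 CPM in the later set, against 6.64, 6.14, 5.44, 14.7 and 14.5 CPM in the earlier set. Its difference was 1.08 ± 0.35 (adjusted p = 0.0412), the sets overlapped, and the call was lost without a.del.53, b.del.D10, c.del.A12, abc.del.A6, abc.del.E2 or ab.del.D10 (adjusted p = 0.0571 to 0.107) and after median centring (adjusted p = 0.142). On castaneus values alone Dppa2 was at -0.51 (adjusted p = 0.842). Dppa4 averaged 18.8 ± 5.38 CPM in the later set and 11.96 ± 3.001 CPM in the earlier set (0.63 ± 0.23, adjusted p = 0.0672), and passed without ab.del.D12 (adjusted p = 0.0228). The deleted letters differ between the sets, so that for these genes the run of sample numbers and the edit cannot be told apart from these values.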

How the data were processed

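Bru-seq libraries of 16 samples were used, 10 of them in the lettered sets. Per the labels' protocols, cells were given 2 mM bromouridine for 30 min, the RNA holding it was captured on beads carrying anti-BrdU antibodies, and libraries that keep strand were made from 300 ng of it and read as 100 bp single ends. Per the submitters' processing notes, Bowtie2 and bedtools were used on mm10, with no version stated in any source used here. The deposited table's header names reads that were clipped, kept at a mapping quality of 10 and split between the 129 and castaneus genomes by SNPs, so that reads without a SNP do not enter.

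The table was deposited by the authors in CPM, with 42497 rows and 32 value columns, 1 for each copy and library, each of which sums to 1000000. The design had assumed RPKM, and the log-scale test was kept. Whole reads were recovered from the steps of the values (100% of values within 0.01 of a whole number) and used for edgeR 4.0.16 and DESeq2 1.42.0 as alternatives.

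For each symbol the widest autosomal row was kept, and the 2 copies were averaged. Genes with a mean of at least 0.2 CPM over the libraries compared were tested on log2(CPM + 0.1) with limma 3.58.1 (R 4.3.3, trended variance, Benjamini-Hochberg adjustment, threshold 0.05). The named genes are the 12 largest rises and falls among called genes with a mean of at least 1 CPM whose sets did not overlap, and up to 4 called genes of each list, or up to 2 with the highest mean where none was called. The members, the lists and the tests were chosen with earlier results of these data known. Chosen after their values were seen were the 5 lists of replication-independent histones, histone messenger RNA processing factors, other RNAs without a poly(A) tail, splicing factors and small nucleolar RNA hosts, and the genes Hist1h1a, Hist1h2bc, Hist1h2bp, H2afz, Rmrp, Malat1, Srsf7, Ncl, Srf, Trp53, Cdkn1a, Mdm2, Stat3, Esrrb, Ldha, Dppa2 and Dppa4.

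On simulated counts for the same 13336 genes, limma recovered 54% of genes changed by 1 and 83% of genes changed by 2 on the log2 scale, with 3 false calls. The simulation changed 100 genes by each amount, up and down alike, with no width trend and no shift of most genes. These data had both, so that the simulation does not gauge false calls in them. Alternatives were other scalings, pseudocounts and filters, each copy alone, the letters or their number as terms, the row width trend removed, all 16 libraries, and each library left out. The fit with the row width trend removed was added after the data were seen. Its trend was drawn in each library from all tested genes but the replication-dependent histones, and was then taken from the histones as well. Sequences were searched with Python 3.11.15. Intervals and limits from reads cover counting error only.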

Additional observations from a re-analysis of the deposited data

Results flagged for a closer look

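Within a set of 5 libraries, 1 library stood apart from the other 4 for 11 of the genes named, by a gap that made up over 0.71 of the range of its set (Dixon's 95% limit for 5 values). These came from 274 sets of 5 values examined, and chance flags about 1 in 20 such groups.

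In the later set, b.del.D10, the library with the fewest reads, was the low one in 5 of these: it had 0 CPM for 2900060B14Rik, 0 CPM for Hist1h2ak, 0 CPM for Ndrg2, 0.273 CPM for Ctgf and 0.730 CPM for Eomes, a mesoderm factor. Of these, 2900060B14Rik, Hist1h2ak and Ndrg2 were called lower in the later set and Ctgf higher. Also in the later set, a.del.53 was high for Mest, at 54.6 CPM, and low for Suz12, at 271 CPM, a subunit of Polycomb repressive complex 2 that was called lower. In the earlier set, bc.del.B3 had 73.6 CPM for Mki67, a proliferation marker, and 0 CPM for Perp, a p53 target. Hhex, an endoderm factor, stood apart in abc.del.A6 at 0.977 CPM, and Keap1 in abc.del.E2 at 6.44 CPM. Without the library that stood apart, all 10 genes called here kept their call and Eomes gained one. Without b.del.D10 the difference was -1.28 for 2900060B14Rik (adjusted p = 0.0151), -1.67 for Hist1h2ak (adjusted p = 0.0371), -1.25 for Ndrg2 (adjusted p = 0.0157), 2.91 for Ctgf (adjusted p = 0.00160) and 1.28 for Eomes (adjusted p = 0.0337, against 0.0682 with all libraries). Without a.del.53 it was 1.14 for Mest (adjusted p = 0.0114) and -0.44 for Suz12 (adjusted p = 0.0194). Without bc.del.B3 it was 0.61 for Mki67 (adjusted p = 0.00474) and 1.27 for Perp (adjusted p = 0.0257). Without abc.del.A6 it was 1.43 for Hhex (adjusted p = 0.0118), and without abc.del.E2 1.80 for Keap1 (adjusted p = 0.000499). Leaving out other single libraries removed the call of Mki67 in 7 cases, of Perp in 5 and of Hhex in 3, beside the losses given above for 2900060B14Rik, Hist1h2ak and Ndrg2. Hhex also did not pass with the letters as terms (adjusted p = 0.0856). No cause was tested.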

How the results depend on the processing

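Each value here counts genes called between the later and the earlier set, 2694 as reported, of which 2072 were higher and 622 lower. After median centring 815 were higher and 2095 lower, after quantile normalization 1062 and 1103, with edgeR 1199 and 1225, with DESeq2 1697 were lower, and with the row width trend removed 823 and 1052. On 129 values alone 1646 were called, 1202 of them higher, and on castaneus values alone 1495, of which 1181 higher and 314 lower. With the letters a, b and c as terms 1165 were called, 884 higher and 281 lower, and with the number of letters as a term 372 were lower. With all 16 libraries 4458 were called, 3451 higher and 1007 lower, and with every row in place of the widest per symbol 5282 were called, 3865 higher and 1417 lower. Leaving out 1 library gave 1707 to 2927 called, 1320 to 2180 higher and 367 to 794 lower. In the other 6 libraries, with 1602 called, 1348 higher and 254 lower as reported, median centring gave 408 higher and 1130 lower, quantile normalization 698 called and 401 higher, and edgeR 651 higher and 529 lower. Leaving out 1 of them gave 0 to 3135 called, 0 to 2392 higher and 0 to 743 lower, with 0 called without 680kinv.B10 or F121-9R2, 3 without 245kdel.F9, 290 without 100kdel.C3, 867 without F121-9R1 and 3135 without 4k.b.c.G12. Of single genes, Ahsa1 was at -0.83 (adjusted p = 0.677) and Odc1 at -0.14 (adjusted p = 0.938) on 129 values alone, and Ncl at -0.37 and Dppa2 at -0.51 on castaneus values alone, against a rise in the mean of both copies. Ahsa1 lies on chromosome 12, as does Dnajb9, and their differences were 0.99 and 1.32 on castaneus values but -0.83 and 0.37 on 129 values. Gbx2, on chromosome 1, was at 2.74 on 129 values and 0.49 on castaneus values. Whether some libraries held 1 parental copy of these chromosomes was not tested. Ahsa1 did not pass with the letters as terms (adjusted p = 0.138). Among 137 genes named by rule, 102 stayed on their side of the threshold after median centring, 108 with edgeR, 84 with the width trend removed, 73 with the letters as terms and 99 to 124 with 1 library left out. The causes were not tested. No paired analysis was possible because the labels number no replicates across the sets; a replicate block on the edit label, over ab.del and c.del with 1 library in each set, called 2979 genes, 2277 higher and 702 lower. Low genes are limited by depth, at 3 reads worth up to 0.313 CPM of a copy in b.del.D10.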
